A study of Mus musculus with 9 samples.

Results

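The comparison described here sets primary peritubular myoid cells collected 1 h after a heat treatment against untreated cells of the same kind. It uses 6 of the 9 samples of the series, chosen by their treatment labels: 3 untreated libraries, called control 1 to 3, and 3 libraries at 1 h, numbered 1 to 3. Peritubular myoid cells are the contractile cells that wrap the seminiferous tubules of the testis. All were primary cells of the C57BL/6J strain, grown in serum-containing medium at 37 °C, and no allele, transgene or cell line is named. For the heated group, dishes stood for 30 min in a 42 °C water bath, went back to the incubator and were harvested 1 h later. The control group had no treatment on its label, and the labels do not say whether its dishes were moved or when they were harvested. The other 3 samples of the series were collected 6 h after the same heat and entered only 1 alternative fit, in which all 9 libraries shared 1 estimate of the spread. The labels number the replicates without saying whether they came from separate mice or separate cultures, so the p-values reflect only how far these libraries differ, and that may be technical variation.

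RNA levels are given as scaled FPKM, which are the deposited fragment counts adjusted for transcript length and library size, divided by 1 factor per library. The factor was the median ratio of a library to the geometric mean over genes above 0 in all 6. It was 1.04 to 1.07 in control and 0.914 to 0.957 at 1 h, so the unscaled FPKM of a typical gene were lower at 1 h, with a median log2 change over all genes of -0.17 before scaling and -0.01 after it. The size of each library was estimated from its smallest values at 19000000 to 19400000 reads. Pearson correlations of log2 values across genes were 0.937 to 0.983 within groups and 0.925 to 0.972 between groups. Control 3 stood apart, with correlations of 0.937 and 0.951 with the other controls, which correlated at 0.976 with each other. Over genes, replicates had a median SD of 0.234 in control and 0.143 at 1 h on the log2 scale.

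The cell type on the labels was checked against 11 markers of peritubular myoid cells. Their summed level was 4062 to 5068 scaled FPKM in control and 4379 to 4890 at 1 h, and none was at 0. Tagln, Acta2, Myl9 and Tpm2 made up most of each sum. Over the 6 libraries Synpo2 stood at only 0.26 to 1.455, Myh11 at 11.3 to 45.8 and Des at 13.2 to 59.55. Acta2, smooth muscle actin, stood at 1444, 1260 and 1521 in control and at 1395, 1322 and 1273 at 1 h. Transcripts typical of other testicular cells were present too. The sum of 11 Leydig cell markers was 1072 to 2382 in control and 1187 to 2582 at 1 h, led by the hormone gene Insl3. Insl3 alone stood at 1543, 1482 and 169.5 in controls 1 to 3 and at 938, 341 and 1244 at 1 h. Of the 11 Leydig cell markers, 4 were under 1 in all 6 libraries. The sum of 16 Sertoli cell markers was 328 and 434 in controls 1 and 2, 3133 in control 3, and 334 to 703 at 1 h. Macrophage markers summed to 53.9 to 104 in control and to 67.5, 221 and 367 at 1 h. Endothelial markers summed to 85.3 to 152 in control and 81.2 to 121 at 1 h, germ cell markers to at most 10.3, and red blood cell markers to at most 6.70, in control 3. The 12 markers of fibroblasts and stroma were the only one of these 8 lists whose sums did not overlap between the groups, at 700 to 1166 in control and 1761 to 2339 at 1 h. In bulk RNA, more cells of a type and more RNA per cell cannot be told apart.

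**Figure D1:**
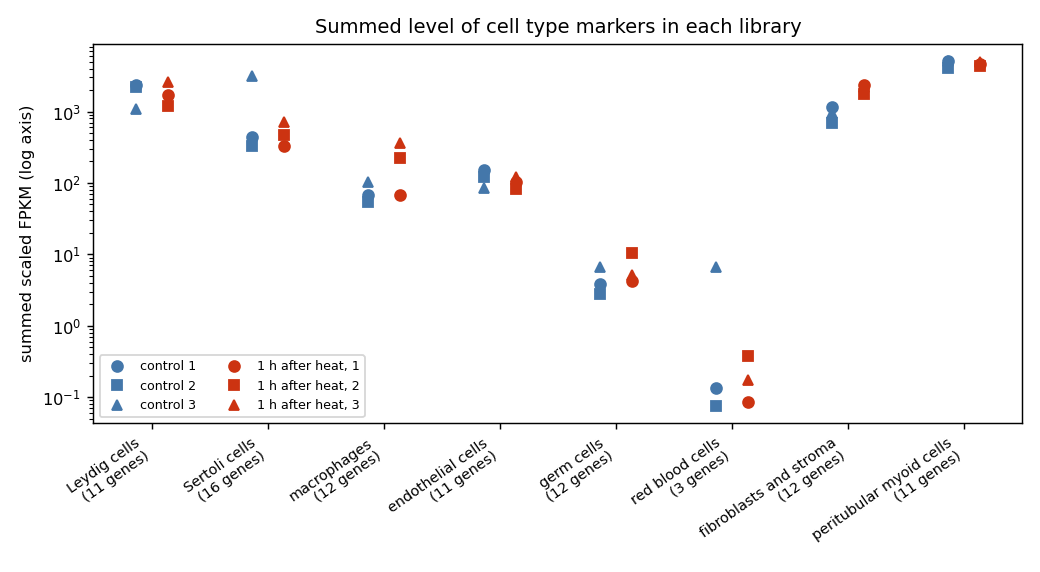
Summed scaled FPKM of marker genes of 8 cell types (log axis) in each of the 6 libraries, with circles, squares and triangles for replicates 1, 2 and 3, control in blue and 1 h in red. The myoid sums lie between 4062 and 5068 in all 6 libraries, control 3 is high for Sertoli cell markers at 3133, and the fibroblast and stroma sums at 1 h (1761 to 2339) all lie above those in control (700 to 1166).

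Cells answer heat through heat shock factor 1, which is held inactive by chaperones, is released when proteins unfold, and then binds heat shock elements, arrays of inverted GAA units in the promoters of chaperone genes. HSP70 chaperones fold client proteins in a cycle driven by HSP40 co-chaperones, and by nucleotide exchange factors such as HSP110 and BAG proteins. Stress also starts transcription of immediate early genes, whose messages are short-lived, and can lower translation through the integrated stress response. The testis normally lies below body temperature, and the effect of heat on its cells is the question the series names.

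One hour after heat, 84 genes were higher than in control and 1 was lower, among the 11210 genes that reached 1 FPKM in 3 or more of the 6 libraries. These calls rest on limma's moderated test of log2(scaled FPKM + 1), with a Benjamini-Hochberg adjusted p below 0.05. The higher genes were 0.749% of the genes tested and the lower gene 0.00892%. These are the shares to set beside each count of called list members below. All 84 had every 1 h library above every control library, 78 were more than 2-fold higher and 32 more than 4-fold higher, and their median log2 change was 1.67. A control mean under 5 scaled FPKM was found for 21 of them. Fold changes here are on the scale of log2(scaled FPKM + 1), which makes the change of low genes look smaller.

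At an unadjusted p below 0.05, 750 genes had higher values and 373 lower ones, and a p-value with no signal would put 560 genes there in all. Without library scaling, which shifts the median of all genes to -0.17, these counts were 442 and 1269. The 3 libraries of each group did not overlap for 1013 genes with higher values at 1 h (9.04% of the genes tested) and for 788 with lower values (7.03%). Among those that differed more than 2-fold, 243 were higher and 15 lower. The count of calls depends on single libraries. Without 1 h replicate 2 it was 20 higher, without 1 h replicate 3 it was 30, and without 1 h replicate 1 it was 43. Without control replicate 1, 2 or 3 it was 59, 43 or 56 (49 of the 84 among the last). The genes called under all 17 other settings were Arc, Arid5a, Bag3, Dnaja1, Dnajb1, Dnajb4, Fbxo30, Hspa1a, Hspa1b, Noct and Zfand2a, 11 in all. Tnfsf18 was called in each of the 16 settings that tested it, and was not tested where 1 FPKM was required in all 6 libraries. With the replicate number as a block, 67 genes were higher, of which 48 were among the 84, and 2 were lower. With all 9 libraries in 1 fit, 26 genes were higher than control at 1 h and 25 of them were among the 84.

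**Figure D2:**
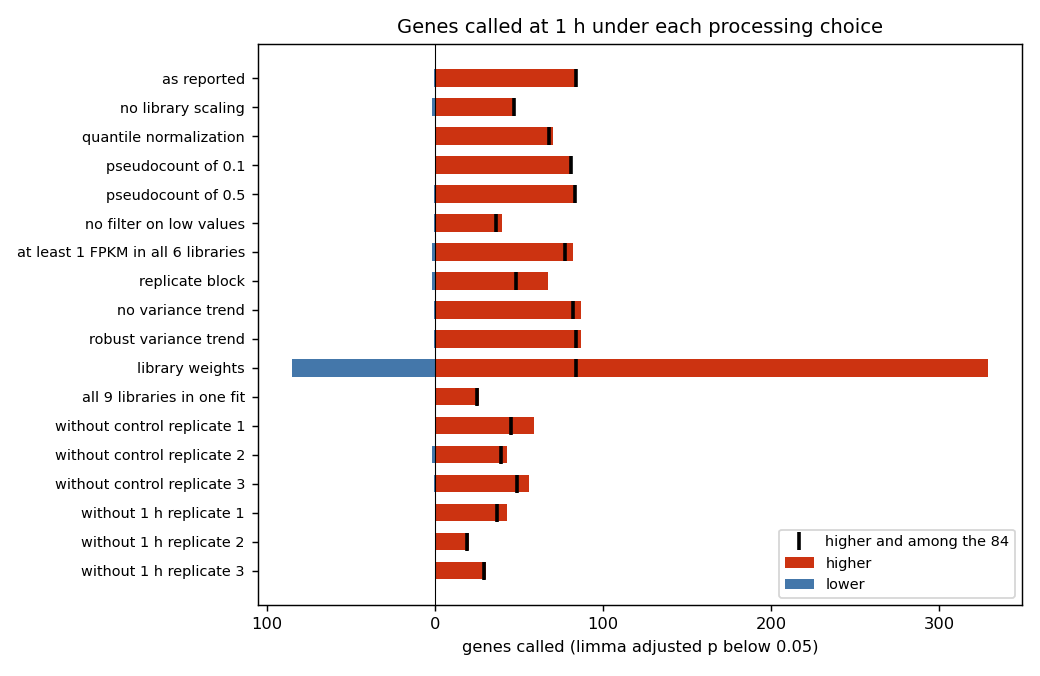
Genes called under each of the 18 settings, higher to the right in red and lower to the left in blue, with a black tick for those among the 84. The bars run from 20 genes higher without 1 h replicate 2 to 329 with library weights.

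**Figure D3:**
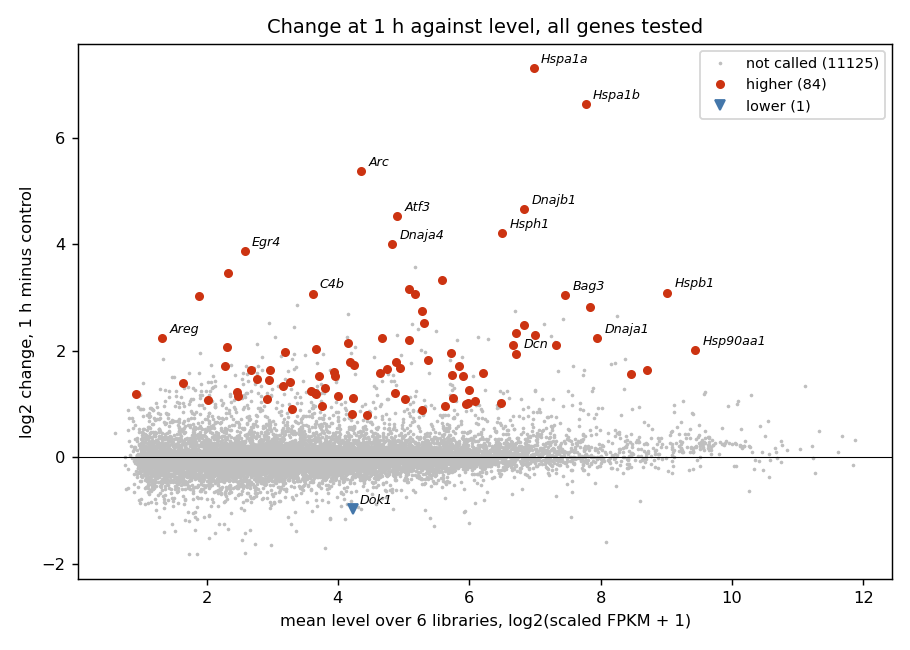
Log2 change at 1 h (vertical) against the mean log2(scaled FPKM + 1) over 6 libraries (horizontal) for the 11210 genes tested, with the 84 genes called higher in red and Dok1, the 1 gene called lower, in blue. The named chaperones spread over a wide range of levels, and Hspa1a and Hspa1b have the highest changes at log2 7.31 and 6.64.

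The inducible HSP70 genes had the largest changes of all genes tested. Hspa1a (chromosome 17, 34969359 to 34972156, minus strand, mm10) stood at 9.81, 11.5 and 6.47 scaled FPKM in controls 1 to 3 and at 1297, 1873 and 1655 in the 3 libraries at 1 h. All 3 libraries at 1 h lay far above all 3 controls. The log2 change of Hspa1a was 7.31 (SE 0.23, adjusted p 9.63e-05), or 159-fold. Hspa1b, its neighbour (chromosome 17, 34956429 to 34959238, minus strand), stood at 24.9, 27.8 and 13.1 in control and at 1727, 2534 and 2361 at 1 h, a log2 change of 6.64 (SE 0.30, adjusted p 0.000267). The transcripts of this pair are nearly identical, so how reads were divided between them is uncertain, and the rise is better read as that of the pair.

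Hsph1, the HSP110 nucleotide exchange factor that recharges HSP70, stood at 17.9, 21.6 and 21.2 in control and at 319, 467 and 395 at 1 h. Its log2 change was 4.21 (SE 0.17, adjusted p 0.000265), with no overlap between groups, and its adjusted p was 0.0873 with all 9 libraries in 1 fit. Hspa8, the constitutive HSP70, was already at 1454, 1556 and 1166 in control and reached 3042, 3888 and 3673 at 1 h. The groups did not overlap and the log2 change was 1.35, but the adjusted p of 0.0603 missed the threshold. Of 11 HSP70 and HSP110 genes tested, 3 were called higher and none lower, and the median log2 change of the list was 0.31. The other 7, among them Hspa4 at a mean of 95.5 in control and 108 at 1 h, overlapped between groups.

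The HSP40 co-chaperones, which hand clients to HSP70 and start its ATPase, split into 4 genes that rose and 11 that were not called. Dnajb1 stood at 26.3, 21.6 and 18.0 in control and at 464, 688 and 590.3 at 1 h, a log2 change of 4.66 (SE 0.20, adjusted p 0.000265). Dnaja4 stood at 4.61, 5.74 and 8.46 in control and at 105, 158 and 86.6 at 1 h (log2 4.003, SE 0.27, adjusted p 0.00161, and 0.155 with all 9 libraries in 1 fit). In both genes the groups lay far apart. Dnajb4 (log2 2.30, adjusted p 0.00497) rose from a mean of 57.2 ± 10.9 to 286 ± 48.8, and Dnaja1 (log2 2.24, adjusted p 0.00498) from 114 ± 21.8 to 539.9 ± 63.0 (SD, n = 3). The 11 uncalled genes all overlapped between groups and lay between log2 -0.17 and 0.26. The median of all 15 was 0.05, against -0.01 over all genes tested, and fell to -0.12 without library scaling.

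Bag3, which links HSP70 to selective autophagy and to the actin cytoskeleton, was called under all 17 other settings. It stood at 58.2, 58.4 and 65.0 in control and at 449, 574 and 505 at 1 h, a log2 change of 3.05 (SE 0.14, adjusted p 0.000267). None of the 9 other BAG proteins and HSP70 partners tested was called, and their log2 changes ranged from -0.41 (Bag4, the 1 with lower values without overlap) to 0.24 (St13). Zfand2a, an arsenite-inducible factor of the proteasome pathway, stood at 12.4, 14.5 and 15.4 in control and at 42.4, 59.3 and 40.3 at 1 h (log2 1.66, adjusted p 0.0124).

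Hsp90aa1, the inducible cytosolic HSP90, stood at 342, 392 and 307 in control and at 1230, 1639 and 1358 at 1 h (log2 2.02, SE 0.19, adjusted p 0.00736). Its constitutive partner Hsp90ab1 stood at 689, 802 and 629.6 in control and at 1287, 1528 and 1336 at 1 h, without overlap, at an adjusted p of 0.0844. The groups of both genes were apart, and in control Hsp90ab1 was the more abundant per length while at 1 h the pair was nearly level. Among the 13 co-chaperones of HSP90 tested, none was called. Chordc1, Stip1 and Ahsa1, the activator of the HSP90 ATPase, were higher in each 1 h library than in each control, at log2 0.55, 0.50 and 0.43, and Tomm34 was lower without overlap, at -0.45. The call for Hsp90aa1 was lost without 1 h replicate 2, at 0.0601, and with all 9 libraries in 1 fit, at 0.209.

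Hspb1, the small heat shock protein HSP27 that holds unfolded clients and stabilises actin, stood at 148, 115 and 321 in control and at 1106, 1753 and 1782 at 1 h. Control 3 was the highest control for this gene, yet every library at 1 h was above it. The log2 change was 3.10 (SE 0.40, adjusted p 0.0260). That call was lost in 8 of 17 other settings, at an adjusted p of up to 0.251. Quantile normalization, no filter on low values and all 9 libraries in 1 fit were among these. The adjusted p was 0.0628, 0.118 or 0.114 without 1 h replicate 1, 2 or 3. It was 0.0877 or 0.0722 without control replicate 1 or 2. Hspb8, the partner of Bag3, stood at 81.1, 84.4 and 118 in control and at 178, 190.3 and 236 at 1 h, at an adjusted p of 0.0696, and 0.0491 with the replicate block. Cryab, abundant in control at a mean of 948, reached a mean of 1368 with overlapping groups.

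In the mitochondria, the chaperonin HSP60 (Hspd1) and its lid HSP10 (Hspe1), whose genes lie head to head, had similar values. Hspe1 stood at 186, 260.2 and 175 in control and at 485, 737 and 628 at 1 h (log2 1.57, SE 0.23, adjusted p 0.0362). Hspd1 stood at 183, 286 and 175 in control and at 456, 594 and 502 at 1 h (log2 1.29, adjusted p 0.0696). Neither gene's groups overlapped. The call for Hspe1 was lost on leaving out any 1 of the 6 libraries, with adjusted p between 0.0541 (without control replicate 2) and 0.163 (without 1 h replicate 2). The 15 other mitochondrial chaperones, proteases and subunits of the cytosolic chaperonin overlapped between groups, and the mitochondrial HSP70 gene Hspa9 had means of 194 and 207.

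In the endoplasmic reticulum, Herpud1, a membrane protein of the degradation pathway, was the 1 of 21 genes tested that was called. It stood at 34.0, 28.1 and 30.2 in control and at 82.9, 93.5 and 141 at 1 h (log2 1.72, SE 0.21, adjusted p 0.0204). Without control replicate 1, 2 or 3 or without 1 h replicate 2 its adjusted p was above the threshold, at most 0.0897 over all settings. Hspa5, the lumenal HSP70 also called BiP, stood at 601, 554 and 378 in control and at 978, 1201 and 1405 at 1 h, at an adjusted p of 0.0988. In all, 10 of the 21 genes had higher values without overlap and none lower, against 9.04% and 7.03% of all genes tested.

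**Figure D4:**
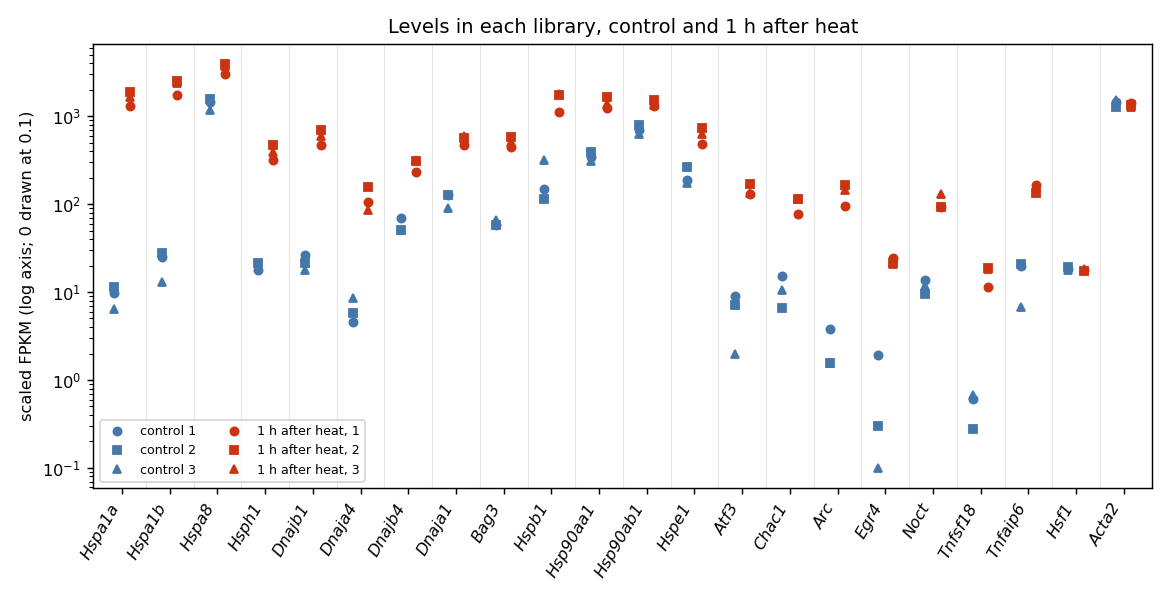
Scaled FPKM (log axis, with 0 drawn at 0.1) of 22 genes in each library, control in blue and 1 h in red, with circles, squares and triangles for replicates 1, 2 and 3. Hspa1a and Hspa1b go from under 30 in control to above 1200 at 1 h, Hspa8 and Hsp90ab1 start high and go up less, and Hsf1 and Acta2 overlap.

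The RNA of Hsf1, heat shock factor 1, was not called. It stood at 18.3, 19.1 and 17.7 in control and at 17.7, 17.4 and 18.3 at 1 h, a log2 difference of -0.04 with overlapping groups, and Hsf2 had means of 6.10 and 5.88. Ier5, which promotes dephosphorylation of heat shock factor 1, stood at 41.7, 26.5 and 14.2 in control and at 99.0, 119 and 147 at 1 h, at an adjusted p of 0.0579. Ubb, a polyubiquitin gene, had values of 1494 to 1572 at 1 h, above control at 606 to 904. Its adjusted p was 0.113, and none of the 11 genes of the list was called. Cirbp and Rbm3, RNA-binding proteins induced by cold, had means of 13.9 and 249 in control and of 10.5 and 223 at 1 h, with overlap in both.

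Promoters of chaperone genes that hold heat shock units are shown, because these units are the letters heat shock factor 1 is known to bind. Not every chaperone gene that rose had them: the windows of Dnajb1 held none of the 3 arrangements searched. RefSeq promoter windows (GRCm38.p6, the mm10 assembly), from 250 bases before to 50 after a gene's start, were found for 66 of the 84 genes called higher. In the 250 bases before the start, exact matches to head-to-head heat shock units are in capitals.

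Hspa1a (chr17:34972157-34972406, minus strand): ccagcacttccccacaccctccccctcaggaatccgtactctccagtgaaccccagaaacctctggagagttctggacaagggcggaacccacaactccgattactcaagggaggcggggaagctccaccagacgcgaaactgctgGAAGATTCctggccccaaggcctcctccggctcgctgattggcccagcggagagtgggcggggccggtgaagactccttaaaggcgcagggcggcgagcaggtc
Hspb1 (chr5:135887669-135887918, plus strand): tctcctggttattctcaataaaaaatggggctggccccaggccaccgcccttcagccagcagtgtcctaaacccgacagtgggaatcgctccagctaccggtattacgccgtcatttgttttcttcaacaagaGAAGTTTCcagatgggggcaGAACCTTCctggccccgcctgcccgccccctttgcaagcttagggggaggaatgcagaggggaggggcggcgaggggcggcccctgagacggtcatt

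Hspa1a held 1 match centred at -100 from its start, and Hspb1 held 2, at -113 and -93. The 250 bases before the start of Hspa1b were identical to those of Hspa1a at 247 positions and held the same match at -100. For Hspe1 only the 30 bases around its run of units are shown, and there the capitals mark a run of units in both orientations.

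Hspe1 (chr1:55088053-55088082, plus strand): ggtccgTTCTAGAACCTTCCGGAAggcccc

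The 2-unit letters GAANNTTC, searched on both strands, were in the windows of 10 of the 66 genes, 15.2%, against 6.85% of the 9016 tested genes with a window. Of all 27025 genes in the RefSeq table, 9.04% held them. The 10 genes were Bag3, Cish, Dnaja1, Dnaja4, Fosl2, Hspa1a, Hspa1b, Hspb1, Hspe1 and Hsph1. Most of these encode chaperones or their partners, whereas Cish is an inhibitor of cytokine signalling, whose call was lost with the replicate block (0.0504) and on leaving out any 1 library (0.0563 to 0.151), and Fosl2 is a transcription factor.
The 3-unit letters GAANNTTCNNGAA, which contain the 2-unit ones, were in the windows of Hspe1 and Hsph1, 3.03% of the 66 genes against 0.566% of those tested and 0.662% of all genes with a window. The opposite arrangement, TTCNNGAA, was in 7.58% of the 66 genes and 8.26% of those tested, and in 9.60% of all genes with a window. These are matches of letters in a window and not measured binding.

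A different motif, the cyclic AMP response element TGACGTCA, was in the windows of 7 of the 66 genes, 10.6%, against 3.71% of the tested genes and 2.03% of all genes with a window. The genes were Areg, Arl5b, Ch25h, Has1, Maff, Plk2 and Zfand2a. Of the pair below, with the element in capitals, the first encodes a growth factor and the second a kinase.

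Areg (chr5:91139349-91139598, plus strand): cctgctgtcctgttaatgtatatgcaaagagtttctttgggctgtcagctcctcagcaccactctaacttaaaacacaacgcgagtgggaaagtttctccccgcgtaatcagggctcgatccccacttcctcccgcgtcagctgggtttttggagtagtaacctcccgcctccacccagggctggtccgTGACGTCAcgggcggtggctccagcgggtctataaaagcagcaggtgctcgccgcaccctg
Plk2 (chr13:110394794-110395043, plus strand): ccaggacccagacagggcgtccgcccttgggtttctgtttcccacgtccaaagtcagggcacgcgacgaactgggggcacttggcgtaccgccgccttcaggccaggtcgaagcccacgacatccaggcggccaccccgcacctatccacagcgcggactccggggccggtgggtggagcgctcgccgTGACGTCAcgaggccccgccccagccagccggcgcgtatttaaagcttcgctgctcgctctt

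The element was centred at -57 in Areg and at -58 in Plk2, and also at -57 in Ch25h. The letters TATAAA were in 18.2% of the 66 genes against 8.42% of those tested and 15.7% of all genes with a window. AP-1 letters, TGANTCA, were in 10.6% against 6.13%, and in 8.97% of all genes with a window.

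Genes of the integrated stress response, a program that slows translation and favours amino acid supply, leaned upward as a list. All 19 tested had a log2 change above 0, 15 had higher values without overlap, 5 were called, and the median was 0.64 (0.47 without library scaling). Of all genes tested, 9.04% were higher without overlap and 0.749% were called higher. Atf3, a stress-induced transcription factor, stood at 8.94, 7.19 and 1.96 in control and at 131, 169 and 132 at 1 h (log2 4.53, SE 0.43, adjusted p 0.00859). Chac1, which degrades glutathione, stood at 15.2, 6.62 and 10.5 in control and at 77.7, 113 and 115 at 1 h (log2 3.17, SE 0.29, adjusted p 0.00736). Atf3 and Chac1 lost the call without 1 h replicate 2, at 0.063 and 0.059.

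Ppp1r15b, a subunit of the phosphatase that restores translation, had means of 21.4 in control and 46.8 at 1 h (log2 1.10, adjusted p 0.0360). Slc7a11, the cystine importer, had means of 0.919 ± 0.156 and 4.12 ± 1.10 (log2 1.40, adjusted p 0.0297). Ddit4, an inhibitor of mTOR signalling, had means of 42.8 ± 5.38 and 86.9 ± 12.1 (log2 1.00, adjusted p 0.0448). With the replicate block these 3 calls were lost, at adjusted p of 0.0913, 0.0723 and 0.109. They were also lost on leaving out any 1 of the 6 libraries, at adjusted p of up to 0.166, 0.118 and 0.178. Atf4, the factor at the head of this program, is controlled mainly by translation, and its RNA had means of 181 and 216. Ddit3, the death-linked factor CHOP, had means of 43.1 and 63.1, and neither it nor Atf4 was called.

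Immediate early transcription regulators had the highest median of the 38 gene lists, a log2 change of 1.92 over 23 genes tested, with 18 higher without overlap and none lower. Over all genes tested, 9.04% were higher and 7.03% lower without overlap. Only 4 of the 23 passed the test. Arc, a gene known from neuronal activity and transcribed within minutes of a stimulus, stood at 3.84, 1.58 and 1.56 in control and at 94.7, 165 and 144 at 1 h (log2 5.38, SE 0.31, adjusted p 0.000874). Egr4, a zinc-finger factor, stood at 1.94 and 0.299 in controls 1 and 2, was listed at 0 in control 3, and stood at 24.1, 21.3 and 20.7 at 1 h (log2 3.88, SE 0.38, adjusted p 0.00921). Egr4 lost its call without 1 h replicate 2, at 0.0632, and with 0.1 in place of 1 added before the log, at 0.0681.

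Maff, a small MAF factor, stood at 56.0, 53.1 and 36.7 in control and at 174, 213 and 253 at 1 h (log2 2.12, adjusted p 0.0109). The call for Maff was lost without 1 h replicate 2, at 0.0810, and with all 9 libraries in 1 fit. Fosl2, the more stable member of the FOS family, had means of 46.3 ± 6.15 and 97.4 ± 11.8 (log2 1.06, adjusted p 0.0362), and lost the call on leaving out any 1 library, at 0.0732 to 0.152. The classic members of the family had large changes and a wide spread in control. Fos stood at 126, 51.7 and 17.8 in control and at 220.4, 220.2 and 188 at 1 h (adjusted p 0.297). Egr1 stood at 334, 127 and 41.2 in control and at 741, 858 and 702 at 1 h (adjusted p 0.198), and Jun at 61.9, 21.7 and 22.3 in control and at 131, 156 and 173 at 1 h (adjusted p 0.0689). In these 3 genes control 1 was the highest control, and every library at 1 h lay above it.

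Krüppel-like factors, which regulate growth and differentiation, were called for 3 of 12 genes. Klf6 stood at 88.3, 89.2 and 55.6 in control and at 311, 418 and 281 at 1 h (log2 2.11, SE 0.24, adjusted p 0.0159). Without 1 h replicate 1, 2 or 3 the adjusted p of Klf6 was 0.0628, 0.0838 or 0.0563. Its call was also lost without the filter on low values and with all 9 libraries in 1 fit. Klf10 and Klf7 had log2 changes of 1.52 and 1.10 (adjusted p 0.0421 and 0.0186) and lost the call with the replicate block, at 0.102 and 0.0538. On leaving out 1 library the call for Klf10 was lost for each of the 6 (up to 0.136) and that for Klf7 for all but control 3 (up to 0.118). Dusp10, a phosphatase that switches off the stress kinases JNK and p38, was the 1 of 16 MAP kinase phosphatases and feedback genes called. It stood at 16.1, 14.3 and 10.4 in control and at 40.2, 36.4 and 51.6 at 1 h (log2 1.59, adjusted p 0.0229, and 0.0655 with the replicate block). It was lost without control 2 or any library at 1 h, at 0.0722 to 0.0838.

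Noct, a phosphatase with a daily rhythm related to mRNA deadenylases, stood at 13.6, 9.44 and 11.8 in control and at 91.5, 93.3 and 129 at 1 h (log2 3.06, SE 0.19, adjusted p 0.00113). It was the 1 of 14 regulators of mRNA decay called, and the median of that list was -0.13. Arid5b, a chromatin regulator, stood at 20.5, 22.4 and 20.3 in control and at 75.7, 76.9 and 78.4 at 1 h (log2 1.82, SE 0.10, adjusted p 0.000874, and 0.0540 with all 9 libraries in 1 fit). Its relative Arid5a, which binds and stabilises cytokine mRNAs, went from a mean of 1.45 to 9.31 (adjusted p 0.00684). Fbxo30, a ubiquitin ligase subunit, stood at 7.54, 7.42 and 7.48 in control and at 31.3, 37.9 and 41.3 at 1 h (log2 2.15, adjusted p 0.00113).

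Genes of the hyaluronan matrix and the prostaglandin and EGF-like signals that induce it formed another group. Of 15 tested, 4 were called higher, 7 were higher and 2 lower without overlap, and the median log2 change was 1.23, or 0.49 without control 3. The shares of all genes tested were 0.749% called higher, and 9.04% higher and 7.03% lower without overlap. Tnfaip6, which crosslinks hyaluronan, stood at 19.7, 20.9 and 6.77 in control and at 165, 135 and 158 at 1 h (log2 3.33, SE 0.39, adjusted p 0.0172). The hyaluronan synthase Has1 stood at 0.221 and 0.747 in controls 1 and 2, was listed at 0 in control 3, and stood at 14.2, 9.40 and 6.44 at 1 h (log2 3.03, adjusted p 0.0111). Has2 had means of 2.64 and 7.504 (adjusted p 0.0488) and lost the call in 12 of 17 other settings, including each with 1 library left out (0.0657 to 0.225). The EGF-like ligand Areg stood at 0.298, 0.0841 and 0.0841 in control and at 4.06, 4.61 and 4.66 at 1 h (log2 2.24, SE 0.15, adjusted p 0.00141, and 0.0595 with all 9 libraries in 1 fit). Tnfaip6 lost its call without 1 h replicate 1, 2 or 3, and Has1 without 1 h replicate 2, at adjusted p of at most 0.0838 and 0.0810. Ptgs1 and Hyal2, a cyclooxygenase and a hyaluronidase, were the members lower without overlap, at log2 -1.11 and -0.67, and were not called.

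Of 15 cytokines and chemokines tested, Tnfsf18, the ligand of the receptor GITR, was called. It stood at 0.614, 0.280 and 0.673 in control and at 11.4, 18.7 and 18.1 at 1 h (log2 3.46, SE 0.22, adjusted p 0.00122), without overlap. Il6 stood at 1.91 to 14 in control and at 135, 26.6 and 23.5 at 1 h (adjusted p 0.301), with 1 h replicate 1 far above the others. None of 15 targets and feedback genes of NF-kappaB was called. Nfkbiz, the member of that list with the largest change, had a log2 change of 2.07 (adjusted p 0.367). The 15 interferon response genes tested had a median log2 change of 0.82, none called and none without overlap. Over all genes tested, 9.04% were higher and 7.03% lower without overlap. Summed macrophage markers were 53.9 to 104 in control and 67.5 to 367 at 1 h, and their part in these immune genes was not tested.

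Of 18 genes of the p53 and growth arrest list, 2 were called. Plk2, a kinase of the stress checkpoint, stood at 66.4, 48.2 and 30.0 in control and at 168, 267 and 292 at 1 h (log2 2.34, SE 0.33, adjusted p 0.0352). Mdm2, the ligase that degrades p53, stood at 65.2, 57.3 and 63.3 in control and at 108, 145 and 126 at 1 h (log2 1.01, SE 0.14, adjusted p 0.0362). With the replicate block both calls were lost, at 0.0817 and 0.0878, and the call for Mdm2 was lost on leaving out any 1 library (0.0628 to 0.154) and that for Plk2 on leaving out any but control 1 (0.0547 to 0.152). Of 8 BCL2 family genes, none was called.

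Among the TGF-beta and BMP feedback genes, Smad7, which blocks the receptor, and Skil, a repressor of SMAD targets, were called of 18 tested. Their means were 16.5 ± 3.40 and 11.8 ± 1.55 in control and 54.9 ± 10.1 and 26.6 ± 3.11 at 1 h, with adjusted p of 0.0185 and 0.0260. The call for Smad7 was lost with the replicate block, at 0.0576, and without control 2, 1 h replicate 2 or 1 h replicate 3, at 0.0636 to 0.103. That for Skil was lost on leaving out any library but control 3, at 0.0637 to 0.132. Peritubular cells supply growth factors to spermatogonial stem cells, and of 15 such genes tested Igf1 was called. Igf1 stood at 5.58, 3.92 and 5.30 in control and at 10.95, 16.9 and 17.4 at 1 h (log2 1.42, SE 0.21, adjusted p 0.0408, and 0.0794 with the block). Its call was lost on leaving out any library but 1 h replicate 1, at 0.0825 to 0.193. Csf1, another signal of these cells, had means of 480.2 and 639.9 with overlapping groups.

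Few listed matrix genes passed the test, though most leaned the same way. All 21 genes of the collagen and basement membrane list had a log2 change above 0, and 9 were higher without overlap. The median was 0.55 (0.38 without library scaling), but of this list only Col3a1 was called. Without overlap, 9.04% of all genes tested were higher. Outside this list, the matrix genes Lamb2, a laminin chain, Loxl1 and Prelp were also called. Their log2 changes were 0.97, 1.03 and 1.96 (adjusted p 0.0362, 0.0354 and 0.0429). The calls for Lamb2 and Loxl1 were lost on leaving out any 1 library (up to 0.157 and 0.127) and with the replicate block. That for Prelp was lost on leaving out any library but control 2 (up to 0.158). Col3a1 stood at 295, 168 and 264 in control and at 856, 628 and 749 at 1 h (log2 1.64, SE 0.25, adjusted p 0.0429), and lost the call on leaving out any 1 library, at 0.0717 to 0.173. Dcn, the proteoglycan decorin, stood at 63.7, 52.4 and 43.7 in control and at 259.6, 198 and 168 at 1 h (log2 1.94, SE 0.21, adjusted p 0.0133), and was not called without control 2 or 1 h replicate 2, at 0.0570 and 0.0838. C4b, a complement component, has a close paralog, so its share of reads is uncertain. It stood at 4.52, 3.05 and 2.38 in control and at 43.8, 30.3 and 31.0 at 1 h (log2 3.07, SE 0.23, adjusted p 0.00258). Dcn, Col3a1 and Dpt were the 3 of 10 tested fibroblast markers called, and the median of the list was 0.94. Dpt lost the call with the replicate block, at 0.0783, and on leaving out any 1 library, at 0.0657 to 0.130. Thy1, another of these markers, had a log2 change of -0.75 and was not called. The summed fibroblast and stroma markers did not overlap between the groups (700 to 1166 against 1761 to 2339). Col1a1 and Col3a1, which are in both lists, made up much of that sum, and the part of the markers in the other matrix genes was not tested.

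**Figure D5:**
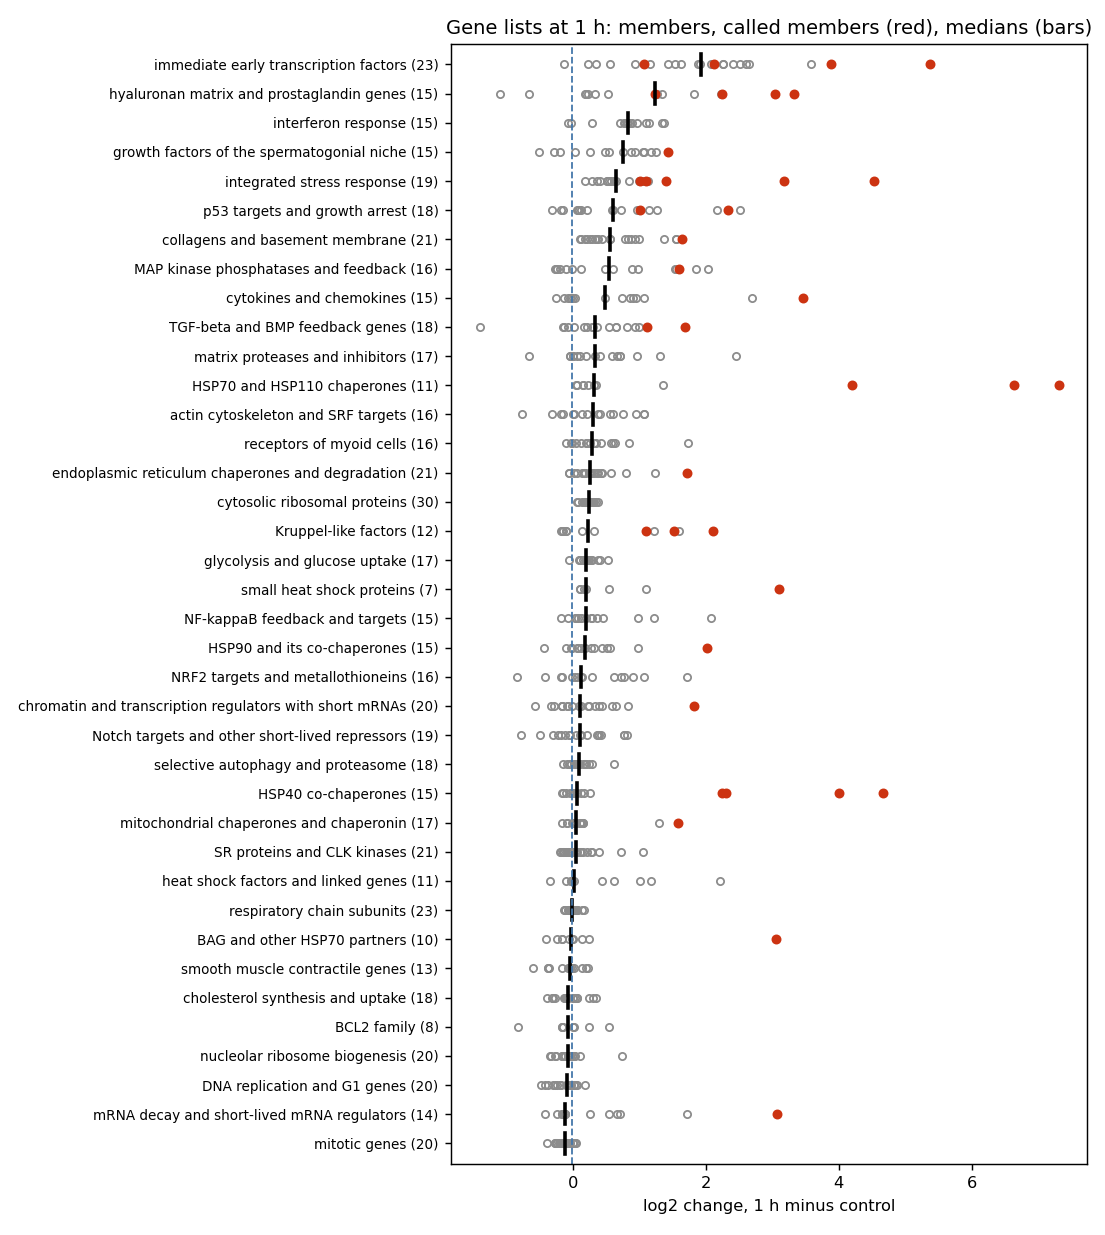
Log2 change at 1 h for each tested member of 38 gene lists (open circles, or red where called), with the list's median as a black bar, the number tested in parentheses and the median of all genes as a dashed line. Most chaperone lists have a median near the dashed line with a few members far to the right, whereas the immediate early list is shifted as a whole to a median of 1.92.

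Contractile genes, the defining feature of these cells, were not called in either direction. Of 13 tested none had groups without overlap, against 9.04% higher and 7.03% lower of all genes tested, and the median was -0.04. The same shares stand beside the other counts without overlap in this paragraph. Tagln had a log2 change of 0.13, and turned to -0.05 without library scaling and to -0.06 with quantile normalization. Myh11 and Des, with means of 28.8 and 37.0 in control and 23.9 and 24.95 at 1 h, varied several-fold between replicates of each group. The lists of respiratory chain subunits (23 tested), mitotic genes (20), genes of DNA replication and G1 (20) and cholesterol synthesis (18) also had no member called and none without overlap. Their medians were -0.02, -0.13, -0.09 and -0.08. The 30 ribosomal protein genes all had a log2 change above 0, with a median of 0.23, of which 1 was without overlap and none called, and that median was -0.05 with quantile normalization and -0.03 without control 3.

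Only Dok1, an adaptor that dampens receptor tyrosine kinase signals, was called lower. It stood at 25.8, 22.4 and 27.7 in control and at 10.4, 14.2 and 12.7 at 1 h, so that every heated library was below every control. Its log2 change was -0.97 (SE 0.15, adjusted p 0.0482). This call was lost in 12 of 17 other settings, on leaving out any 1 library (adjusted p 0.0844 to 0.180) and with the replicate block (0.0946).

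Of the genes next in line, which fell short of the threshold, 2 are named here after their values were seen. Galnt18, a glycosyltransferase, stood at 11.7, 12.9 and 14.5 in control and at 4.23, 4.94 and 1.88 at 1 h (log2 -1.65, adjusted p 0.0603). Parvb, an adaptor of integrin adhesions, had values of 3.95 to 6.04 in control and 1.33 to 1.88 at 1 h (log2 -1.11, adjusted p 0.0576). At an adjusted p below 0.1 there were 13 genes lower and 152 higher. With library weights 85 genes were lower and 329 higher.

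The median length of the genes called higher, introns included, was 13.6 kb, against 22.2 kb for all genes tested, and 38.1% were under 10 kb against 26.2%. Of the 84, 6 had no intron (7.14%), against 2.07% of all genes tested. The 788 genes lower without overlap had a median of 17.0 kb. In control 3, deviations from the mean of the 6 libraries ran with gene length. Their medians went from -0.15 log2 units for genes under 5 kb to 0.17 for those of 100 to 200 kb. Controls 1 and 2 ran the other way, from 0.104 to -0.0869 and from 0.0565 to -0.0719. The part of this in the comparison was not tested.

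Each call can be set beside the authors' deposited table, which called genes for this comparison where the q-value did not exceed 0.001 and the change reached 2-fold. By that rule the authors' deposited table had 564 genes higher and 696 lower, of which 310 and 242 were among the genes tested here. Of the 84 genes called higher here, 72 were higher in the authors' deposited table, which is 85.7% of the 84 and 23.2% of the 310. The 3 libraries of each group did not overlap for 76.5% of those 310 genes and for 35.5% of the 242 lower ones in the authors' deposited table. For Hspa1a the authors' deposited table gave a log2 change of 7.27 and for Dok1 one of -1.20. Those values are not on the scale used here, log2(scaled FPKM + 1), on which the changes were 7.31 and -0.97.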

How the data were processed

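Total RNA was extracted and made into libraries by a standard protocol of the sequencing provider, per the labels; the sources used here do not state the strand setting. Tools named in the submitters' processing notes are HISAT2 2.0.4, Bowtie2 2.2.5 and RSEM 1.2.12, with the mm10 build. Per the file headers the deposited values are FPKM per gene and library, 20717 genes listed, 17559 with values. The authors deposited log2 fold changes and DEGseq q-values in the same table, which served only for the side-by-side counts. Coordinates are the table's, counted from 1. Since FPKM are relative, a rise of abundant transcripts lowers the others.

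From these, FPKM were divided by median-of-ratios factors. The values of log2(scaled FPKM + 1) were fitted with limma 3.58.1 in R 4.3.3, with a variance trend over the 6 libraries (4 residual degrees of freedom). The fit was two-sided, Benjamini-Hochberg adjusted over 11210 genes, and tested on simulated data. The simulated noise was independent between genes and of equal spread in both groups, unlike these libraries, so it does not measure false calls here. Deviations from the group mean correlated at 0.196, 0.148 and 0.254 between same-numbered libraries, and at -0.277 to 0.166 between differently numbered ones. The labels do not state a pairing, and these values do not settle one. The reported calls come from the fit without a replicate block. The fit with that block is given where it changes the call of a named gene. Read totals were estimated from transcripts of 400 to 1200 bp, where 89.9% to 92.7% of small values fell within 0.2 reads of a whole number; no count test was run. Named genes were the 12 called genes of largest change per direction with a mean of at least 5 in the higher group and no overlap, up to 4 called members of each list (else its member of largest change), fixed genes, and the highest marker per cell type; others were named after their values were seen. The comparison, the 38 lists and the 8 marker lists were chosen with earlier results of these data known. Promoter motifs were matched exactly on both strands.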

Additional observations from a re-analysis of the deposited data

Results flagged for a closer look

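The 6 h libraries, which the comparison of 1 h with control did not use, held more of the 2 inducible HSP70 transcripts than any control. Hspa1a stood at 48.7, 27.3 and 37.7 scaled FPKM at 6 h, so its lowest value of 27.3 was above the highest control of 11.5. Hspa1b stood at 84.5, 52.96 and 58.7 at 6 h, with its lowest value of 52.96 above the highest control of 27.8. Both were below every library at 1 h.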

How the results depend on the processing

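Over 17 alternatives the count of genes higher stayed within 1.5 times of 84 except without library scaling (47), without the filter on low values (40, over 17219 genes), with library weights (329), with all 9 libraries in 1 fit (26), and when 1 library was left out (20 to 59, of which 59 and 56, without control 1 and control 3, were within that range). The count lower was 2 without scaling, with at least 1 FPKM in all 6 libraries and with the replicate block, 0 with quantile normalization, a pseudocount of 0.1 and all 9 libraries in 1 fit, 85 with library weights, and 0 to 2 when 1 library was left out. Where it was 0, 553, 373 and 260 genes were lower at an unadjusted p below 0.05 in limma for those 3 settings, and 185 to 380 when a library was left out. The replicate block, with 67 higher and 2 lower, ended the calls named beside their genes. The losses named beside a gene are not a full list. Many calls were also lost without the filter on low values or with all 9 libraries in 1 fit. Of 1320 values of named genes over the alternatives, 1099 kept direction and side of the threshold, 178 lost the call, 20 gained one and 23 changed sign, all in genes not called. Without scaling these were Ndufa1 -0.017, Id1 -0.015, Insl3 -0.16, Eng -0.0023 and Tagln -0.048; with quantile normalization Insl3 -0.21 and Tagln -0.058; with library weights Ndufa1 -0.10, Slc2a1 -0.085, Id1 -0.46, Insl3 -1.30 and Clu 0.0175. With 1 library left out, the log2 changes ranged from -0.98 to 0.076 for Birc5, -0.92 to 0.0057 for Ccnd1, -0.0030 to 0.27 for Ndufa1, -0.97 to 0.0035 for Myh11, -0.40 to 0.51 for Id1, -0.37 to 0.13 for Rbm3, -1.04 to 0.57 for Insl3 and -1.46 to 0.34 for Clu. The cause was not tested. Of 748 list medians under alternatives, 69 moved by more than the spread between replicates. With 3 libraries a group and 4 residual degrees of freedom, a gene that did not pass is not shown to be unchanged.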

Other observations

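Of the 84 genes called higher at 1 h, 6 had every 6 h library above every control (Bag3, Hspa1a, Hspa1b, Hspe1, Igf1 and Socs1, the last with an adjusted p of 0.0859 with the replicate block), 2 had every 6 h library below every control, and 76 overlapped with control. For 61 of the 84, every 6 h library was below every 1 h library. The 6 h libraries differed widely among themselves: Hsp90aa1 stood at 1292, 266 and 656 scaled FPKM, Hsph1 at 285, 16.0 and 103, and Hspb1 at 2455, 203 and 750.3, with replicate 1 the highest in each. Dcn and Col3a1 were highest in 6 h replicate 2, at 353 and 1057.

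Of the 84 genes, 46 were in none of the 38 lists. Phlda1, a pleckstrin-homology protein, had means of 93.4 ± 45.8 in control and 613 ± 90.2 at 1 h. Ifrd1, a transcriptional cofactor, had means of 49.2 ± 16.8 and 273 ± 51.4. Ch25h, the enzyme that makes 25-hydroxycholesterol, had means of 15.0 ± 6.25 and 101 ± 20.1. Socs3, an inhibitor of cytokine signalling, stood at 16.3, 11.5 and 17.3 in control and at 122, 55.7 and 54.1 at 1 h, with replicate 1 the highest. These 4 were named after their values were seen, and the calls for Phlda1 and Ifrd1 were lost with the replicate block, at adjusted p of 0.0576 and 0.0520. Without 1 h replicate 2 or 3, none of these 4 was called.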
